A study of Mus musculus with 6 samples.

Results

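The genes described here encode the matrix metalloproteinases Mmp2, Mmp3, Mmp7, Mmp9, Mmp10, Mmp13 and Mmp14, the metalloproteinase inhibitor Timp1, urokinase (Plau) and the urokinase receptor (Plaur). They were taken by gene name from the scanner files, which gave 13 probes for the 10 genes, among 56605 probes for 37008 gene names on the array. Epithelial RNA of the common bile duct was taken from C57BL/6 mice that the labels call iFGF10, a name for an inducible Fgf10 construct. Of the 6 samples, 3 came from mice given 0.02% doxycycline in drinking water for 5 days (DOX+) and 3 from mice given plain water for 5 days (DOX-). The promoter and cell type that drive the construct, and the age of the mice, are not given in the labels. In the sample descriptions, however, the DOX- mice have names beginning with WT and a pair of numbers, so whether those mice carried the construct, and whether each sample is 1 mouse or a pool, is not settled by the labels. Doxycycline treatment and induction of the construct cannot be told apart, because no mice without the construct that drank doxycycline were analysed here. Each sample was read in 1 colour (Cy3) on 1 Agilent array of 60-base probes. Nothing says that the samples of a group are separate mice, so p-values here measure sample-to-sample spread, which may be technical.

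Metalloproteinases are zinc-dependent enzymes that are made as inactive precursors and cut collagens, other matrix proteins and cell surface proteins once their prodomain is removed. TIMP proteins bind the active enzymes and block them. Urokinase, held at the cell surface by its receptor, converts plasminogen to plasmin, which degrades fibrin and can activate several metalloproteinase precursors. In bile duct, matrilysin (Mmp7) is known as a product of the epithelium itself, whereas gelatinase B (Mmp9) is known mainly from neutrophils and macrophages, and gelatinase A (Mmp2) from fibroblasts and other stromal cells.

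The scanner software's detection flag, well above background, was set for 55.93% to 61.90% of an array's spots, and no spot was saturated. The 8 markers of biliary epithelium fixed for this work were all measured, and the array means of their log2 levels lay between 3.77 and 3.98 in DOX+ and between 4.28 and 4.46 in DOX-. A log2 level here is log2 of the processed intensity minus log2 of the array's 75th percentile. Means of the biliary markers were lower in DOX+ for 7 of the 8 and higher for 1 (Sox9), and none passed the limma test. The widest differences were -2.01 for Cdh1 and -1.02 for Krt7 (limma adjusted p = 0.172 for both). The others ran from -0.34 (Krt8) to 0.14 (Sox9). Markers of other cell types were measured too. Array means ran from 2.52 to 3.30 over all 8 fibroblast markers, from 1.47 to 3.77 over all 8 smooth muscle markers, from -2.54 to 3.12 over all 8 markers of pancreatic acinar cells, and from 1.61 to 4.14 over 5 measured hepatocyte markers. In bulk RNA, fewer cells of a type and less RNA per cell cannot be told apart, and the part of these cell types in the results was not tested.

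No gene of the group passed the test between DOX+ and DOX-. Mmp2, Mmp7, Mmp9, Mmp14, Timp1, Plau and Plaur were well above background on all 6 arrays with at least 1 probe, whereas Mmp3, Mmp10 and Mmp13 were near background. Of the 7 genes that could be tested, 0 had a limma adjusted p under 0.05 and 0 had an unadjusted p under 0.05, where 0.0386% of all 20736 genes (8 genes) passed and 13.3% had such an unadjusted p. All 6 arrays lay on 1 slide, whose first row held the DOX+ arrays and DOX- replicate 1 and whose other row held DOX- replicates 2 and 3. Within the first row, where DOX- replicate 1 is the only DOX- array, the differences were -2.74 for Mmp9, -0.87 for Timp1, -0.74 for Plaur, -0.57 for Mmp2, -0.40 for Mmp7, -0.30 for Plau and -0.0031 for Mmp14. For Mmp9, Timp1 and Plaur the limma adjusted p-values with the row as a block were 0.742, 0.862 and 0.657. The median difference of the 7 genes with that block was -0.57, beside 0.03 over all genes. The group means over all arrays were lower in DOX+ for 5 of the 7 (51.8% of all genes had a lower mean) and higher for 2, with a median log2 difference of -0.22 beside -0.01 over all genes. Mmp9 had the widest difference, -1.80, and its interval reached past 0. Only Plaur, 1 of the 7, had groups that did not overlap, where 21.0% of all genes did.

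**Figure D1:**
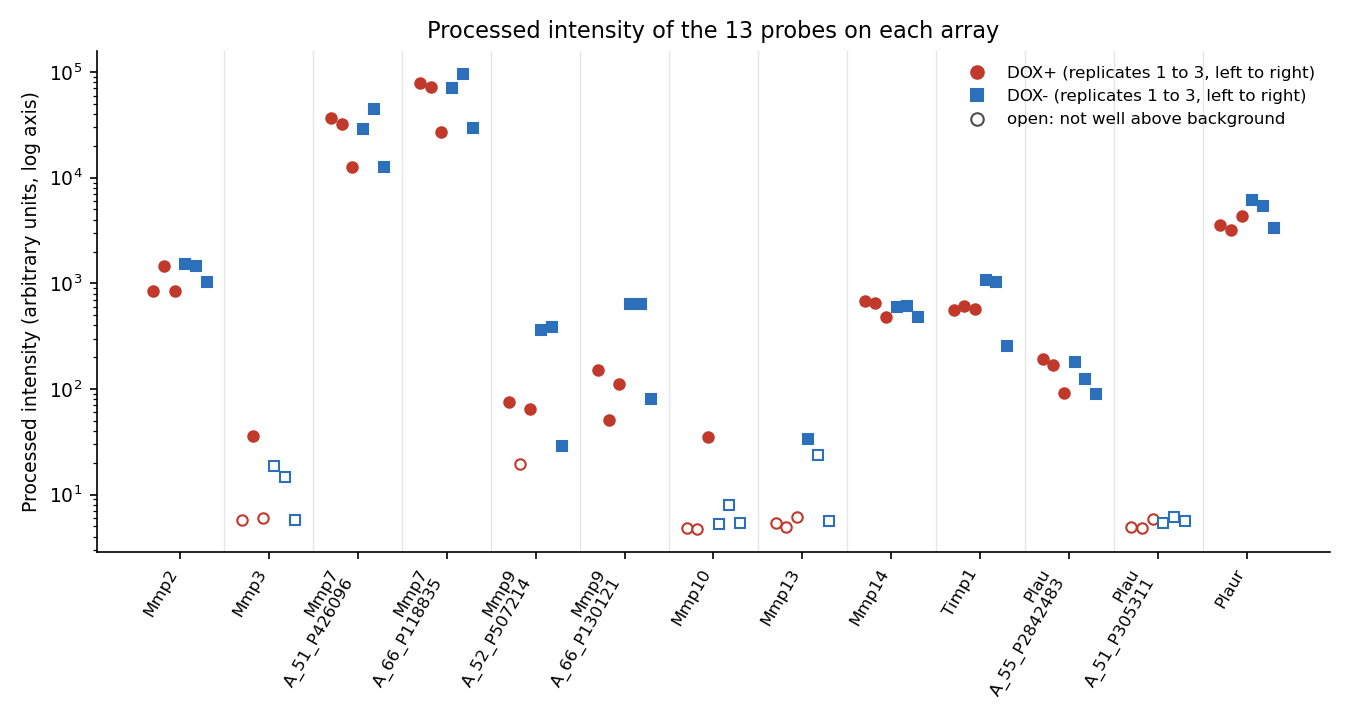
Processed intensity (log axis) of each of the 13 probes on the 3 DOX+ arrays (circles) and 3 DOX- arrays (squares), with open symbols where the spot was not well above background. Mmp7 lies at 12555 units or above on every array, Mmp9 is high on DOX- replicates 1 and 2, and Mmp3, Mmp10, Mmp13 and a Plau probe are mostly open.

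Matrilysin (Mmp7), the smallest of these enzymes because it lacks the hemopexin domain, gave the same picture with both of its probes. The probe at chromosome 9, 7699476 to 7699535 (mm9), read 78820, 71564 and 26980 intensity units on DOX+ replicates 1 to 3 and 70882, 96905 and 29442 on DOX- replicates 1 to 3. DOX+ replicate 3 and DOX- replicate 3 were both low, and the groups overlapped fully. The mean log2 level was 6.03 ± 1.01 in DOX+ and 6.22 ± 0.68 in DOX- (SD, n = 3 each), a difference of -0.19 with a 95% interval of -1.58 to 1.20 (limma adjusted p = 0.915). On the fold scale, that interval runs from 0.335 to 2.30 times the DOX- level, which includes 2-fold in both directions.

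The other Mmp7 probe, at 7697641 to 7697700, lies 5′ of the first and has this sequence, shown because it gives a second reading of Mmp7 in the same RNA.
Mmp7 probe: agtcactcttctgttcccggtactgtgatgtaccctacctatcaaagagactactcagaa
It read 36636, 32100 and 12684 in DOX+ and 29146, 44436 and 12555 in DOX-. The same 2 arrays were low, and the log2 difference was -0.09 (SE 0.57; limma adjusted p = 0.967 in the fit of all 31719 probes). Across the 6 arrays Mmp7 spanned 1.90 log2 units with the first probe and 1.88 with the second. That span was larger than the difference between the group means. Without DOX+ replicate 3 the difference of Mmp7 was 0.39, and without DOX- replicate 2 it was 0.09, so its sign rested on single arrays.

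Gelatinase B (Mmp9), which cuts denatured collagens and type IV collagen of basement membranes, was measured by 2 probes on chromosome 2 (mm9). The probe that stood for the gene maps to 164779091 to 164780300, a span of 1210 bases for a 60-base probe, so it crosses at least 1 exon junction and reads spliced RNA.
Mmp9 probe: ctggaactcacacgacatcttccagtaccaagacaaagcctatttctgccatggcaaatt
It read 152, 51.3 and 111 on DOX+ replicates 1 to 3 and 641, 637 and 80.1 on DOX- replicates 1 to 3. DOX- replicates 1 and 2 stood above all other arrays, while DOX- replicate 3 lay among the DOX+ arrays. The log2 level averaged -3.09 ± 0.90 in DOX+ and -1.30 ± 1.52 in DOX- (SD, n = 3 each). The difference of -1.80 had a 95% interval of -3.80 to 0.21 (limma adjusted p = 0.409). The second probe, at 164780620 to 164780679, read 74.4, 19.5 and 64.6 in DOX+ and 363, 387 and 28.9 in DOX-, with DOX+ replicate 2 not well above background. It put the same 2 arrays on top and gave a difference of -1.86 (SE 1.02; limma adjusted p = 0.489 among all probes).

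The size of the Mmp9 difference depended on single arrays. Without DOX- replicate 3 the value was -2.68 (SE 0.53; unadjusted p = 0.00368; limma adjusted p = 0.189), while leaving out any other single array gave values from -2.23 to -1.33. Over all alternatives run, the adjusted p of Mmp9 lay between 0.189 and 0.742.

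Gelatinase A (Mmp2) was read by a probe on chromosome 8, 95376840 to 95376899 (mm9). Its intensities were 849, 1461 and 845 in DOX+ and 1521, 1472 and 1037 in DOX-. DOX+ replicate 2 lay within the range of the DOX- arrays, and the other DOX+ arrays were lower. The log2 difference was -0.43 with a 95% interval of -1.03 to 0.17 (limma adjusted p = 0.490). Mmp14, the membrane-anchored enzyme MT1-MMP that activates the Mmp2 precursor, was read on chromosome 14 at 55058775 to 55058834. It gave 674, 647 and 481 in DOX+ and 600, 605 and 481 in DOX-. These 6 values were the most even of the tested genes, with a span of 0.84 log2 units, and the groups overlapped. Its difference was 0.04 with a 95% interval of -0.51 to 0.59 (limma adjusted p = 0.964), that is, between 0.702 and 1.5 times the DOX- level, and its sign changed when single DOX+ arrays were left out.

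The stromelysins Mmp3 and Mmp10, which cut many matrix proteins and activate other metalloproteinases, and the collagenase Mmp13 gave no measurable comparison. Mmp3 (chromosome 9, 7455751 to 7455810) was well above background on DOX+ replicate 2 alone, with 5.69, 35.6 and 6.04 in DOX+ and 18.6, 14.8 and 5.71 in DOX-. Mmp10 (7510011 to 7510070) was above background on DOX+ replicate 3 alone, with 4.79, 4.69 and 35 in DOX+ and 5.26, 7.92 and 5.36 in DOX-. Mmp13 (7282762 to 7282821) was above background on DOX- replicate 1 alone, with 5.35, 4.97 and 6.08 in DOX+ and 33.6, 23.6 and 5.66 in DOX-. Each of the 3 genes was thus seen on a single, different array. The scanner software had replaced the signal by a substitute near the noise level on 2, 4 and 3 of the 6 arrays for Mmp3, Mmp10 and Mmp13, so those low values have no order. No fold is given, because the mean of the group with the bright array lay below the detection limit of the dimmer one.

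These 3 genes lie with Mmp7 in a cluster of metalloproteinase genes. By the probe positions in the files, 10 Mmp genes lay on chromosome 9 between 7282762 and 7699535 (mm9), in the order Mmp13, Mmp12, Mmp1b, Mmp3, Mmp1a, Mmp10, Mmp8, Mmp27, Mmp20 and Mmp7. Of them 1, Mmp7 at the end of the row, was well above background on all 6 arrays, and 2, Mmp1a and Mmp27, were above it on none. Mmp12, the macrophage elastase, came closest to Mmp7 in detection, above background on 3 DOX+ and 2 DOX- arrays with the brightest of its 3 probes. Neither of its other probes was above background on any array, so the probes disagree, and the cause was not tested.

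The promoter windows show which letters these genes share. RefSeq windows on GRCm38.p6 ran from 250 bases before to 50 after a transcript start. For Mmp2, Mmp9 and Plau none was found, so these genes were not searched. Windows were found for the other 7 of the 10 genes, with 2 windows for Mmp7. They were searched on both strands for the AP-1 motif TGANTCA, which reads the same on both strands, and for the ETS core AGGAAG of the PEA3 factors. These motifs are known from metalloproteinase and urokinase promoters, where AP-1 and ETS factors act downstream of growth factor signalling. An AP-1 match was found in 5 of the 7 genes, beside 7.81% of all 32851 windows. An ETS core was found in 6 of the 7, beside 35.4% of all windows. The 2 counts are by gene, with 2 windows for Mmp7, whereas the shares are by window. Of the genes with an AP-1 match, Mmp7, Mmp10, Mmp3 and Mmp13 lie in 1 cluster, so their matches may not be independent. The 5 AP-1 matches began between 69 and 35 bases before the start, a stretch in which 1.13% of all windows hold a match; the stretch was defined from the matches themselves. The letters around them are given 5′ to 3′ on the plus strand, with the AP-1 match in capitals and, for Mmp7 and Mmp13, an ETS core within 50 bases of it in capitals as well.
Mmp7, chr9:7691955-7692060: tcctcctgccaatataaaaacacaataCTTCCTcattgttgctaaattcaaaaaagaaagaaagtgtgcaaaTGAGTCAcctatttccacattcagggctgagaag
Mmp10, chr9:7502252-7502312: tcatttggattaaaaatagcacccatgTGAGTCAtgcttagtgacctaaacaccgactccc
Mmp3, chr9:7445749-7445809: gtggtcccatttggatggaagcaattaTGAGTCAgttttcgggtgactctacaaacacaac
Mmp13, chr9:7272425-7272512: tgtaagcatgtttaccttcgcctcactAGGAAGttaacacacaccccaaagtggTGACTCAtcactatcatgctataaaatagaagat
Plaur, chr7:24462387-24462447: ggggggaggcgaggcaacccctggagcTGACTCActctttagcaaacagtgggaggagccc
The AP-1 match began 63 bases before the start in both Mmp7 and Mmp10, with the same 7 letters, although Mmp7 was detected on all 6 arrays and Mmp10 on 1. The Mmp7 window of the other annotated start, and those of Mmp14 and Timp1, held no AP-1 match. A match is a run of letters and was not tested as a binding site.

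**Figure D2:**
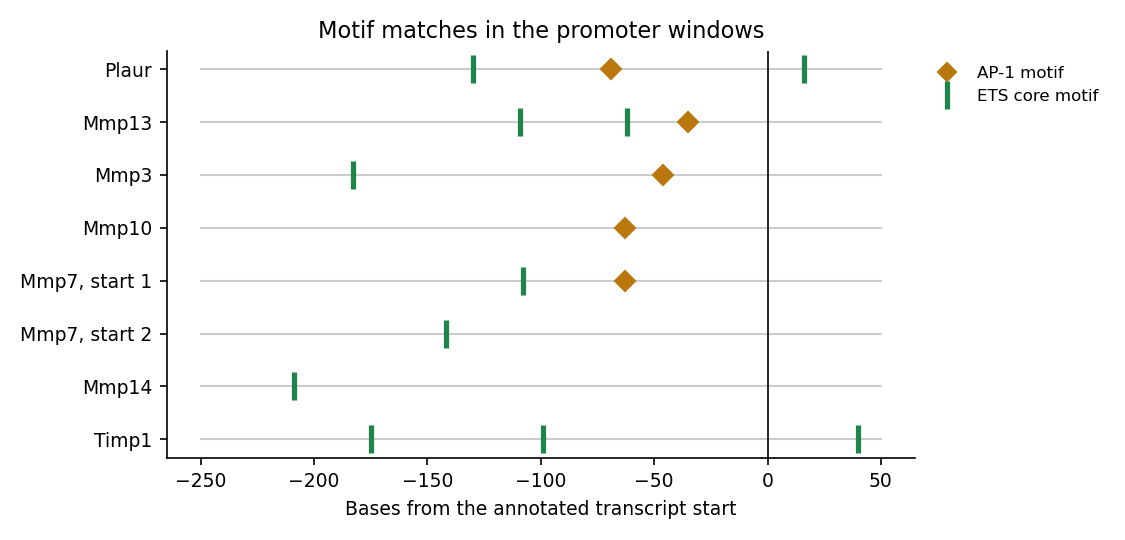
Positions of AP-1 motif matches (diamonds) and ETS core matches (green bars) in bases from the annotated transcript start, for the 8 windows of 7 genes. The 5 diamonds lie between 69 and 35 bases before the start, in Plaur, Mmp13, Mmp3, Mmp10 and the first Mmp7 window.

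Timp1, a secreted inhibitor of most metalloproteinases, was read by a probe on chromosome X, 20451675 to 20451733 (mm9), whose sequence is shown because it is the only inhibitor probe of the group.
Timp1 probe: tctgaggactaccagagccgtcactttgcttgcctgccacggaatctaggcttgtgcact
It read 560, 604 and 572 on DOX+ replicates 1 to 3 and 1068, 1021 and 255 on DOX- replicates 1 to 3. The DOX+ arrays were close together, between DOX- replicates 1 and 2 above them and DOX- replicate 3 below. The log2 level averaged -0.49 ± 0.16 in DOX+ and -0.27 ± 0.97 in DOX- (SD, n = 3 each), a difference of -0.22 with a 95% interval of -1.36 to 0.92 (limma adjusted p = 0.870). Without DOX- replicate 3 the difference was -0.78 (SE 0.15; unadjusted p = 0.0037; limma adjusted p = 0.189), without DOX- replicate 1 it was 0.10, and without DOX- replicate 2 it was 0.01. Over all alternatives run, its adjusted p ranged from 0.189 to 0.996.

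Urokinase (Plau) was read differently by its 2 probes on chromosome 14 (mm9). The probe at 21662487 to 21662546 was well above background on all arrays and read 194, 169 and 90.9 in DOX+ and 179, 125 and 90.3 in DOX-. DOX+ replicate 3 and DOX- replicate 3 had the lowest intensities and the groups overlapped. The log2 difference was 0.14 with a 95% interval of -0.84 to 1.12 (limma adjusted p = 0.910). Its sign turned without DOX+ replicate 1 (-0.17). The other probe, at 21659855 to 21660221, spans 367 bases of genome with 60 bases and so crosses at least 1 exon junction.
Plau probe: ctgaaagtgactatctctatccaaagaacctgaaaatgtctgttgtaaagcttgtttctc
Its intensities lay between 4.81 and 6.08, none was well above background, and all 6 values were substitutes of the scanner software. The probes therefore disagree on whether Plau RNA was detected, and the cause was not tested.

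The urokinase receptor (Plaur), a lipid-anchored surface protein that binds urokinase, was read on chromosome 7 at 25260569 to 25260628 (mm9). Its intensities were 3564, 3196 and 4347 in DOX+ and 6177, 5445 and 3350 in DOX-. After scaling to each array the log2 levels were 2.32, 1.94 and 2.26 in DOX+ and 2.91, 2.61 and 2.33 in DOX-. DOX- replicate 3, at 2.33, stood 0.01 above the highest DOX+ array, so the groups separated by a margin smaller than the spread within either. The difference was -0.45 with a 95% interval of -0.92 to 0.03 (limma adjusted p = 0.396), and it lay between -0.59 and -0.30 when single arrays were left out.

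**Figure D3:**
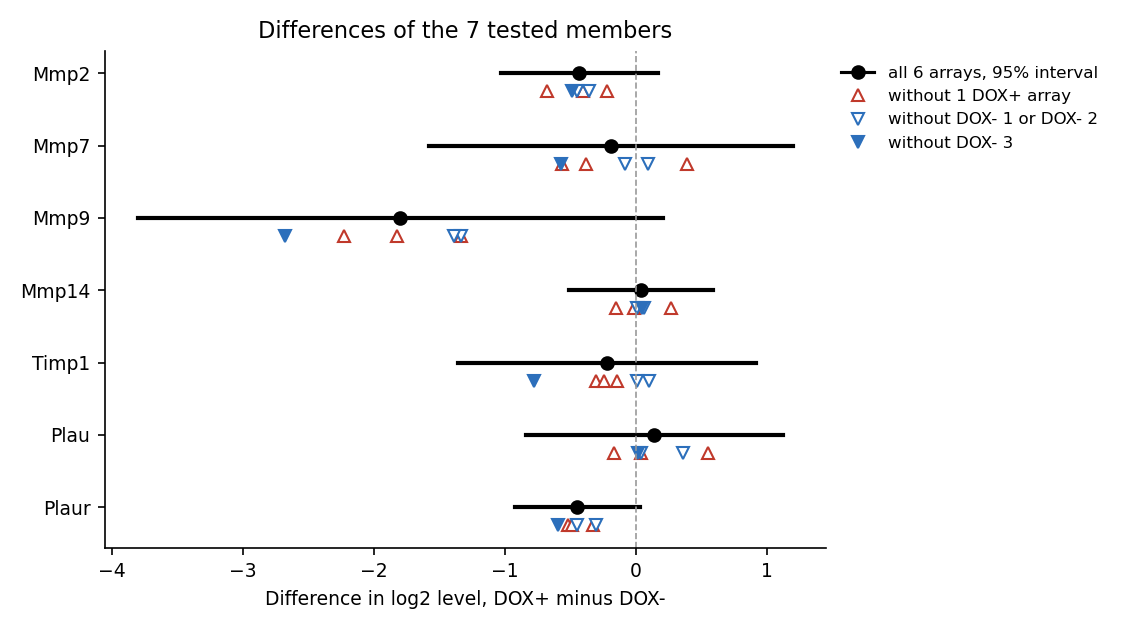
Difference in log2 level, DOX+ minus DOX-, of the 7 tested genes with 95% limma intervals (black), and the same difference after leaving out 1 array (triangles). All 7 intervals include 0, and leaving out DOX- replicate 3 (filled triangle) moves Mmp9 to -2.68 and Timp1 to -0.78.

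DOX- replicate 3 had the lowest log2 level of the DOX- arrays for 6 of the 7 tested genes, all but Mmp14. For Mmp9, Timp1 and Plaur, DOX- replicates 1 and 2 also lay above all other arrays. The share of all tested genes with either order was not counted, so neither order is read as particular to these genes. On DOX- replicate 3 the share of spots well above background (55.93%, beside 59.39% to 61.90% on the other arrays) and the 75th percentile of intensity (666, beside 712 to 910) were also the lowest of the 6 arrays, and the part of this in the levels was not tested. The array means of the macrophage and neutrophil markers put DOX- replicates 1 and 2 on top, but many single markers did not. The 8 macrophage markers were all measured, with array means of 1.72, 1.44 and 1.42 in DOX+ and 2.01, 1.74 and 0.80 in DOX-, and in all 8 the lowest DOX- array was replicate 3. DOX- replicates 1 and 2 lay above all other arrays for 4 of the 8. Of 8 neutrophil markers 6 were measured, while Mpo and Cxcr2 did not pass the filter on dim probes. Their array means were 1.00, -0.14 and 1.40 in DOX+ and 2.10, 2.17 and -0.13 in DOX-, and replicate 3 was the lowest DOX- array for 4 of the 6. Group means were higher in DOX+ for 4 of the 6 (Ly6g, Elane, Csf3r and Retnlg) and lower for 2 (S100a8 and S100a9), with a median difference of 0.17, and DOX- replicates 1 and 2 lay above all other arrays for 3, S100a8, S100a9 and Retnlg. S100a9, a calcium-binding protein abundant in neutrophils, read 1.87, -1.80 and 3.24 (log2 level) in DOX+ against 5.51, 5.55 and 0.92 in DOX-. Ly6g, a neutrophil surface antigen, read 0.60, 0.20 and -0.57 in DOX+ and -1.49, -1.08 and -0.82 in DOX-. No macrophage or neutrophil marker passed the limma test, and their part in the levels of Mmp9, Timp1 and Plaur was not tested. The low DOX- replicate 3 was not seen in myeloid lists alone, nor in all other lists. It was the lowest DOX- array for 6 of 6 T cell and 5 of 8 fibroblast markers. The same held for 5 of 7 mast cell and 4 of 5 hepatocyte markers. That held for only 1 of 8 biliary epithelial, 1 of 8 endothelial, 2 of 8 smooth muscle and 0 of 8 pancreatic acinar markers. Among the DOX- arrays, replicate 3 had the highest means of biliary (4.46) and acinar (3.12) markers.

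Among all 20736 genes, the one whose pattern over the 6 arrays was most like that of Mmp9, the tested member with the widest range, was Il1b, which encodes the inflammatory cytokine interleukin 1 beta (Pearson r = 0.9968 over 6 arrays). Its log2 level was -1.47, -4.28 and -2.40 in DOX+ and 1.44, 1.63 and -2.51 in DOX-. Il1b had the same 2 arrays on top as Mmp9 and the same lowest array, DOX+ replicate 2. Because Il1b was picked for this likeness, the shared order is not a further result. Its own difference was -2.91 (limma adjusted p = 0.395). The next were Mov10, an RNA helicase (r = 0.9949), and the unnamed transcript BB189136 (r = 0.9911). With 6 arrays and this many genes, values this near 1 describe these arrays only.

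**Figure D4:**
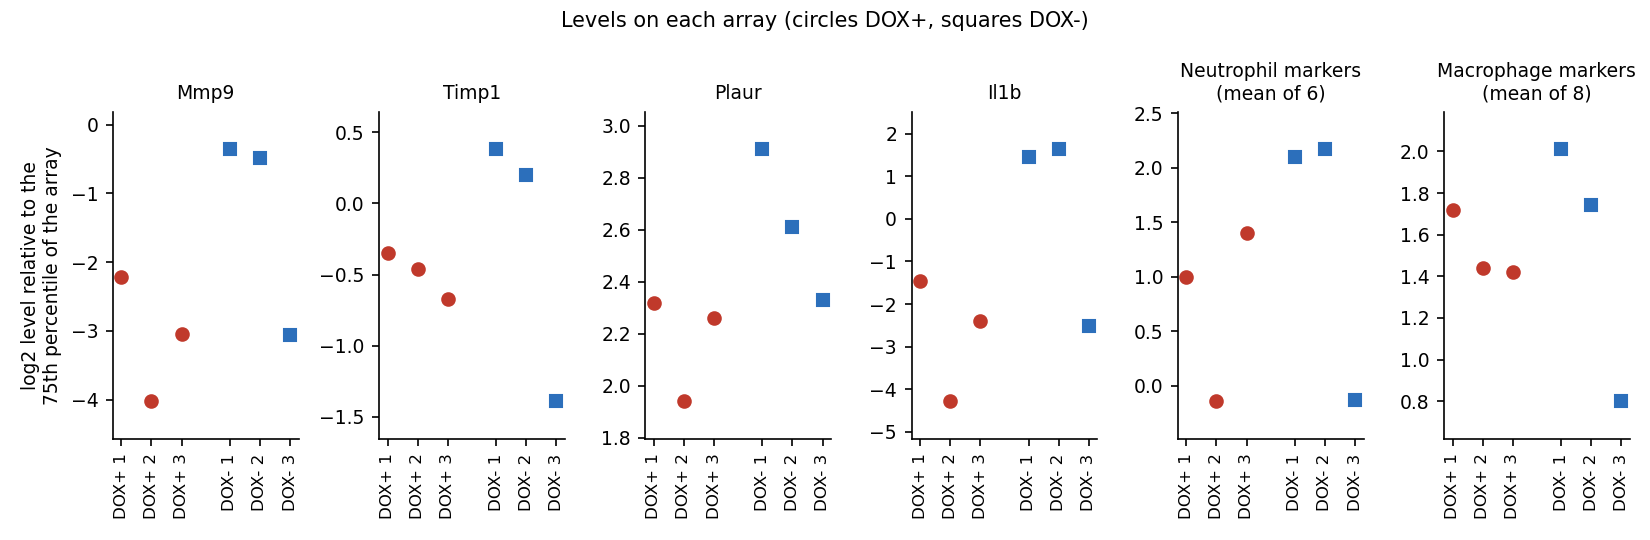
Log2 level on each array, relative to the array's 75th percentile, of Mmp9, Timp1, Plaur and Il1b, and the mean log2 level of 6 neutrophil and 8 macrophage markers (circles DOX+, squares DOX-; each panel has its own axis). In each panel DOX- replicates 1 and 2 lie above all other arrays and DOX- replicate 3 is the lowest DOX- array. Only tested genes with this order are shown, Il1b was picked for its likeness to Mmp9, and most marker lists are left out. The likeness of the panels therefore follows from their choice. For the macrophage markers the margin is small, 1.74 on DOX- replicate 2 against 1.72 on DOX+ replicate 1.

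Other genes of extracellular proteolysis also gave no call. Of a list of 58 further genes, 42 could be tested; 0 passed limma at an adjusted p of 0.05, and 4 had an unadjusted p under 0.05. Their means were higher in DOX+ for 19 and lower for 23, with a median difference of -0.04, and the groups did not overlap for 7 (16.7%, beside 21.0% of all genes). By role, 4 of 7 other tested metalloproteinases had higher means and 3 lower, 3 of 3 metalloproteinase inhibitors had higher means, and 2 of 7 genes of the plasminogen system had higher means and 5 lower. Of 12 ADAM and ADAMTS proteases 7 had higher means, of 7 membrane serine proteases and their inhibitors 2, and of 5 genes of the lysosomal cysteine protease system, the cathepsins Ctsb, Ctsk, Ctsl and Ctss and the inhibitor cystatin C (Cst3), 0. Adam12 and Mmp12 are in these counts although they passed the filter on dim probes through DOX+ alone, the group in which their means were higher.

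The genes named on the higher side were Bsg, Adam12 and Mmp19. Bsg, which encodes the surface protein basigin, known as an inducer of metalloproteinases, averaged 3.41 ± 0.06 in DOX+ against 2.82 ± 0.20 in DOX- (log2 level, SD, n = 3; difference 0.59, SE 0.14, limma adjusted p = 0.224). Adam12, a membrane metalloprotease, lay below the detection flag on all 3 DOX- arrays and was at least 1.24-fold higher in DOX+. It passed the filter only through the group in which it was high. Its fold, its p-value and the separation of its groups are therefore not read as support for a difference. Mmp19 differed by 0.66 between the means, with SE 0.30 (limma adjusted p = 0.412). On the lower side stood St14, Ctsb and Mmp28. St14, the epithelial membrane protease matriptase, had levels of 2.82 ± 0.19 and 3.4 ± 0.20 (difference -0.58, SE 0.17, limma adjusted p = 0.268), and the lysosomal protease cathepsin B (Ctsb) 6.07 ± 0.18 and 6.59 ± 0.26 (difference -0.52, SE 0.18, limma adjusted p = 0.327). Mmp28, epilysin, had a difference between means of -0.38 (-1.94 ± 0.22 against -1.56 ± 0.13; limma adjusted p = 0.376). The groups did not overlap for Bsg, St14, Ctsb and Mmp28. Genes were named here by their small unadjusted p, so this separation is not read as support for a difference.

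The broad inhibitors Timp2 and Timp3 had log2 levels of 4.25 ± 0.74 and 2.71 ± 0.92 in DOX+ and of 4.23 ± 0.68 and 2.30 ± 0.64 in DOX- (SD, n = 3 each), differences of 0.03 and 0.40. Plat, the tissue-type plasminogen activator, had -2.28 ± 0.61 in DOX+ and -1.55 ± 1.14 in DOX-. The membrane-type enzyme Mmp15 had 1.29 ± 0.45 and 1.61 ± 0.12. Mmp12, by its only probe above background on any array, had -3.82 ± 0.63 and -4.30 ± 1.23. Adjusted p-values of these 5 genes lay between 0.591 and 0.988 (limma).

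**Figure D5:**
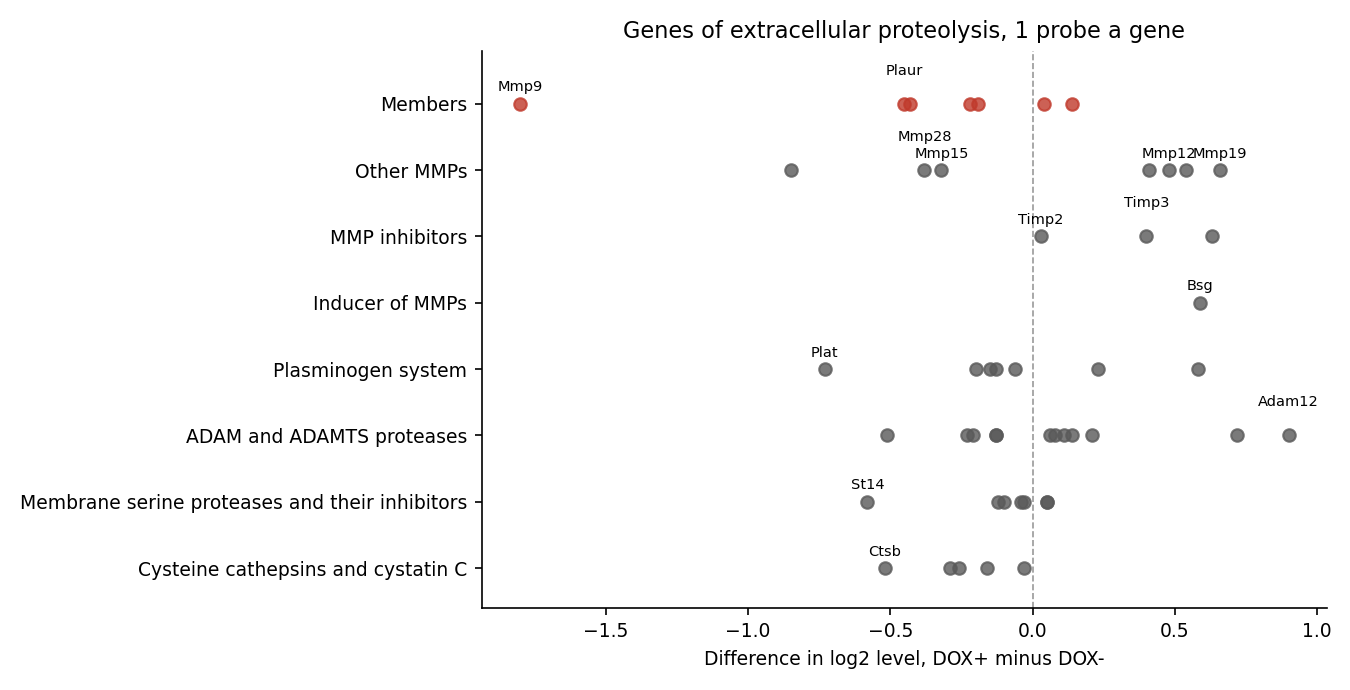
Difference in log2 level, DOX+ minus DOX-, of the 7 tested members (red) and 42 other tested genes of extracellular proteolysis by role (grey). Of the members, only Mmp9 and Plaur are named, beside the grey genes whose levels or differences the text gives. Mmp9, at -1.80, lies apart from the rest, which run from -0.85 to 0.90; no gene shown passed the limma test.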

How the data were processed

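The authors read the arrays with Agilent Feature Extraction; the file headers give version 10.7.1.1 and the submitters' processing notes 9.5.1.1. The deposited intensity was corrected for spatial trends on its own array, per the file headers, which place the probes on mm9. A deposited table of the authors' processed intensity, equalised between arrays by software not given in the sources used here, served as an alternative. From the 59305 non-control spots of each array, 50 to 64 outlier spots were left out, spots of a probe were averaged, and log2 intensity minus the log2 of the 75th percentile was taken. A probe was kept if either group had all 3 arrays well above background, and the probe with the highest mean stood for its gene (20736 genes). The test was limma's (3.58.1, R 4.3.3; two-sided, Benjamini-Hochberg over all genes); the script was tested on simulated data. Probes were named through RefSeq's GRCm38.p6 table (32994 by accession, 10224 by symbol, 520 by an older symbol, 12867 by the file's name). All 6 arrays were on 1 slide, the DOX+ arrays and DOX- replicate 1 in its first row. Members and lists were chosen with earlier results of these data known. Named beyond the members were, by rule, the 3 genes of smallest p in each direction of the wider list, 6 fixed genes of it (1 is not reported here), and the 3 genes most like the member with the widest range. Endothelial, mast cell and T cell markers were also listed. Their median differences were 0.54, 2.18 and 0.28, and none of them passed.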

Additional observations from a re-analysis of the deposited data

How the results depend on the processing

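None of the 7 tested genes passed limma under any of the alternatives run: other background correction, scaling, filters, probe choice, the authors' values, the slide row or the replicate number as block, and each array left out. Of these values 98 kept their direction and 9 reversed, and adjusted p was at least 0.189. Unadjusted limma p, under 0.05 for 0 of the 7 in the main fit, fell under it in some alternatives. Among these, it did so for 2 with the other background correction, 1 without DOX+ replicate 2 and 3 without DOX- replicate 3. A block for slide row, whose first row holds DOX- replicate 1 with the DOX+ arrays, gave differences as follows: Mmp9 -2.74, Plaur -0.74, Timp1 -0.87, Plau -0.30 (reversed) and Mmp14 -0.0031 (reversed). Without single arrays, Mmp7 ran from -0.57 to 0.39, Mmp14 from -0.15 to 0.27, Timp1 from -0.78 to 0.10 and Plau from -0.17 to 0.55. Over all genes the count past the threshold was 8. It was 2 with quantile normalization, 2 with the authors' values, 1 without a filter, 5 with detection required on all arrays, 0 with a block for slide row (where 1409 had an unadjusted p under 0.05) and 0 to 9 without single arrays; without DOX- replicate 2 it was 0 and without DOX+ replicate 1 it was 1. The replicate block gave 0 (2257 at an unadjusted p under 0.05). Same-numbered samples deviated with correlations of -0.087, -0.131 and -0.02, beside -0.129 to 0.219 for differently numbered ones. Such correlations over all genes show no pairing by number but cannot exclude one, and the labels do not settle it. With the replicate block the SE was 0.23 for Mmp7 and 0.24 for Plau, beside 0.57 and 0.40 without it. With 3 arrays a group the intervals were wide, and signals near background limit Mmp3, Mmp10 and Mmp13. The causes were not tested.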
